A study of Mus musculus with 48 samples.

Results

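The genes described here encode 7 subunits of the GABA-A receptor: Gabra2, Gabra3, Gabra4 and Gabra5 (alpha 2, 3, 4 and 5), Gabrb1 and Gabrb2 (beta 1 and 2) and Gabrd (delta). They were chosen by gene symbol, and all 7 were found among the 24062 genes in the deposited count tables. GABA-A receptors are chloride channels of several subunits that open when GABA, the main inhibitory transmitter of the cortex, binds between an alpha and a beta subunit. Receptors with a gamma subunit and alpha 2 or alpha 3 cluster at synapses, whereas receptors with alpha 4 and delta, and many with alpha 5, lie outside the synapse and carry a steady inhibitory current. Ethanol acts on these receptors, which is why their subunits are often followed in drinking models.

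Tissue was the medial prefrontal cortex of mice of the inbred strain C57BL/6. Ethanol mice chose freely to drink a solution of 15% ethanol (v/v) on alternate days over 60 days, had only water on the days between, and were killed directly after the bottles were taken off. Control mice of the same cohort had only water for the same 60 days. A second cohort received 1.5 mg/kg of bacterial lipopolysaccharide (LPS), which triggers an innate immune response, or saline by intraperitoneal injection and was killed 1 week later. No transgene or gene deletion is stated for any group, and the labels used here give no age. In the drinking cohort 1% of each minced tissue suspension was kept as total homogenate, which holds all cell types. The rest was dissociated, cleared of myelin and captured on magnetic beads against CD11b, a surface protein of microglia that other myeloid cells also carry. The injected mice gave bead isolates only. Counts were available for 10 ethanol and 9 water homogenates and for isolates of 10 ethanol, 8 water, 5 LPS and 5 saline mice, each library from its own mouse within a group.

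Total counts in genes ranged from 24.17 M to 67.5 M (M, mega) in the 19 homogenates and from 9.72 M to 39.9 M in the 28 isolates. Values are given as CPM, the count of a gene scaled to the total count in genes of that library (1 CPM is 1 count per M). In water mice the 8 microglial markers stood in the isolates at 2600% to 6384% of their homogenate CPM, and the 10 general neuronal markers at 0.370% to 0.957%. All 6 neutrophil markers were also higher in the isolates of both drinking groups (edgeR, adjusted p under 0.05). Several libraries stood apart. The isolate of water mouse 24 was the shallowest, with 56.1% of its uniquely aligned reads outside genes and 10.3% of its counts in Rn45s, a ribosomal RNA gene. The isolate of water mouse 19 held the most neutrophil marker counts. Among homogenates, that of ethanol mouse 3 had the lowest excitatory marker sum of all (5225 CPM). The other ethanol homogenates had 8302 to 10350 CPM and the water homogenates 5979 to 10060 CPM. The homogenate of ethanol mouse 14 had 6.23% of its counts in Rn45s, against at most 0.786% in the other homogenates.

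By GENCODE M21 on GRCm38, the assembly that mm10 names, the subunit genes lie in clusters. Gabra2 (chr5:70957597-71095849, minus strand) and Gabra4 (chr5:71569749-71658308, minus strand) share a chromosome 5 cluster with Gabrb1 (chr5:71658113-72149037, plus strand). Gabra4 and Gabrb1 stand head to head and overlap by 196 bases, 46 of them exonic in both. Gabrb2 (chr11:42419757-42629028, plus strand) belongs to a cluster on chromosome 11, and Gabra3 (chrX:72432681-72656848, minus strand) to one on the X chromosome. Gabra5 (chr7:57407672-57510059, minus strand) shares 148 exon bases with the antisense gene Gm9962. Gabrd (chr4:155384980-155398112, minus strand) had no overlapping gene. The library kit keeps strand, but the strand setting of the counting is not given in the sources used here, so reads in the exon stretches shared by Gabra4 with Gabrb1 and by Gabra5 with Gm9962 cannot be assigned with certainty.

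Promoter sequences are shown for subunits whose levels moved differently across the homogenates, as described further on: Gabra3 and Gabrb2 tended to be high where Gabra4 was high, and Gabra2 and Gabra5 were not. RefSeq lists 3 starts for Gabrb2, 2 for Gabra3 and 1 each for Gabra2 and Gabra5, and the RefSeq start farthest upstream was taken. GENCODE begins Gabrb2 farther upstream, at chr11:42419757, so the Gabrb2 window lies inside the gene as GENCODE draws it. Each run is the 250 bases before that start on GRCm38.p6, written 5′ to 3′ on the strand of the gene, and holds 0 annotated exon bases. Capitals mark a TATA box (TATAAA) or a GC box of the factor Sp1 (GGGCGG), searched on both strands, so that TTTATA and CCGCCC are the same motifs read on the other strand. The windows are chr5:71095850-71096099 (minus) for Gabra2, chrX:72656920-72657169 (minus) for Gabra3, chr7:57510060-57510309 (minus) for Gabra5 and chr11:42420190-42420439 (plus) for Gabrb2.
Gabra2: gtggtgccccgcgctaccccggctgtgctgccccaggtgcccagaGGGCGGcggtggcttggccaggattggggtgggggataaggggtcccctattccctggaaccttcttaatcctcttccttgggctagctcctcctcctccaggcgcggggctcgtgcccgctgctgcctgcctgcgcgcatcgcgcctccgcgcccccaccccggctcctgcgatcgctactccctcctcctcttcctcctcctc
Gabra3: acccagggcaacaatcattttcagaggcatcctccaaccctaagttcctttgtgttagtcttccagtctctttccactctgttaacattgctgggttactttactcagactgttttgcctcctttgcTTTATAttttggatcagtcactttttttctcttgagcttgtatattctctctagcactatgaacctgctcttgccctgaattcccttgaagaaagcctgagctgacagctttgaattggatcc
Gabra5: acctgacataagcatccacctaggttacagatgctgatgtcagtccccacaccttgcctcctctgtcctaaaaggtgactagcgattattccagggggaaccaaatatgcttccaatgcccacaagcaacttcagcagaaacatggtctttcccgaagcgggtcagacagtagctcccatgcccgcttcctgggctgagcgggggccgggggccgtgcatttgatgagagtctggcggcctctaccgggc
Gabrb2: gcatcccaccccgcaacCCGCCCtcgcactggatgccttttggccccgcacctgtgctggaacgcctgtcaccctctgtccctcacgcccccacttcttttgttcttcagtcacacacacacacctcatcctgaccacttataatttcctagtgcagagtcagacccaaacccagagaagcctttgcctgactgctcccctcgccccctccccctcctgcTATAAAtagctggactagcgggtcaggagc

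Base composition differed among these windows. Gabra2 had 70% G or C and 18 CpG dinucleotides, whereas Gabra3 had 42.4% and 0 CpG; the median of all 32851 mouse promoter windows of this length was 52.4% with 6 CpG. Gabra5 (56.4%, 9 CpG) and Gabrb2 (58.8%, 8 CpG) lay between them. The windows of the other Gabrb2 starts had 54% and 36.8% G or C, and that of the other Gabra3 start 39.2%. In the windows shown Gabrb2 held a TATA box 30 bases before its start, and Gabra3 held one on the opposite strand 123 bases before its start (235 bases before the other start), a motif found anywhere in 12.4% of all windows. The GC box occurred in 32.7% of all windows, among them those shown of Gabra2 and Gabrb2. The windows of the other Gabrb2 starts held neither motif. Neither motif was found in the Gabra5 window, and none of the cAMP response element TGACGTCA, the Egr site GCGTGGGCG or the E box CAGCTG was found in any window shown. The Gabra4 window, not shown, had 61.2% G or C and 12 CpG. It held GC boxes 222 and 74 bases before its start and no TATA box. The Gabrb1 windows, also not shown, held none of these motifs. Whether motifs go with the levels of the subunits was not tested.

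In whole prefrontal tissue all 7 subunits were detected in every library, and the beta 2 subunit was the most abundant of them per kilobase of exon. Over the 19 homogenates the level per kilobase of merged exons averaged 49.6 CPM per kb ± 10.1 (SD, n = 19) for Gabrb2, 36.8 CPM per kb ± 6.25 (SD, n = 19) for Gabra3 and 24.5 CPM per kb ± 6.45 (SD, n = 19) for Gabrd. Gabra4 followed with 15.8 CPM per kb ± 2.94 (SD, n = 19) and Gabra5 with 13.95 CPM per kb ± 3.17 (SD, n = 19). The lowest were Gabra2 with 5.23 CPM per kb ± 1.08 (SD, n = 19) and Gabrb1 with 2.55 CPM per kb ± 0.602 (SD, n = 19). Within single homogenates Gabrb2 stood above Gabra3 in 17 of 19 and Gabra3 above Gabrd in 18 of 19. Gabrd stood above Gabra4, Gabra5 above Gabra2 and Gabra2 above Gabrb1 in 19 of 19. Gabra4 and Gabra5 were the neighbours whose levels overlapped most, with Gabra4 the higher in 13 of 19. Gabrb1 and Gabra2 have long annotated exons (13838 and 7640 merged bases), and any part of these that is not used in cortex lowers their level per kilobase.

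The main question of the drinking cohort is whether ethanol drinking changed expression in the tissue. None of the 7 subunits passed the test between ethanol and water homogenates (edgeR quasi-likelihood F-test, Benjamini-Hochberg over 15215 genes, adjusted p under 0.05), where 0.808% of all tested genes did. At an unadjusted p under 0.05 by edgeR the count was also 0 of 7, beside 2456 of 15215 tested genes. By limma voom it was 1 of 7 (Gabrb1), beside 2370 of 15215 genes. DESeq2 and limma voom called 0 of 7 after adjustment. The values of each subunit follow by role, from the alpha subunits of synaptic receptors to the extrasynaptic alpha and delta subunits and the beta subunits.

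Gabra2, an alpha subunit placed at many cortical synapses, ranged from 31.3 to 64.1 CPM (median 41.6) in ethanol homogenates and from 30.5 to 47.7 CPM (median 35.3) in water homogenates. The ranges overlapped except for ethanol mouse 3, whose 64.1 CPM stood above every other homogenate. The fold change was 0.21 on the log2 scale (SE 0.11, 95% interval -0.02 to 0.44), with an adjusted p of 0.365 by edgeR. Gabra3, the alpha subunit of a smaller class of synaptic receptors, ranged from 84.3 to 185.6 CPM (median 150.4) with ethanol and from 103.9 to 169 CPM (median 140.9) with water. Here ethanol mouse 3 was the lowest of all 19 homogenates and ethanol mouse 1 the highest. Its log2 fold change was 0.13 (SE 0.12, 95% interval -0.13 to 0.38) with an adjusted p of 0.643 by edgeR.

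Gabra5, best known from the hippocampus and deep cortex, ranged from 29.3 to 67.7 CPM (median 39.2) with ethanol and from 34.6 to 48.7 CPM (median 37.6) with water. The water values lay inside the ethanol range, and the coefficient of variation was 28.9% with ethanol against 13.3% with water. The log2 fold change was 0.08 (SE 0.13, 95% interval -0.20 to 0.36). Gabra4, the alpha partner of the delta subunit in forebrain, ranged from 50.5 to 111 CPM (median 100.9) with ethanol and from 65.7 to 115 CPM (median 105.5) with water. The groups overlapped almost fully, again with ethanol mouse 3 the lowest. The log2 fold change of Gabra4 was 0.03 (SE 0.14, 95% interval -0.26 to 0.32). Gabrd, the delta subunit itself, ranged from 36.4 to 100.6 CPM (median 70.8) with ethanol and from 47.9 to 99.5 CPM (median 74.3) with water. Its values overlapped throughout, and its log2 fold change was -0.05 (SE 0.18, 95% interval -0.42 to 0.32).

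Gabrb1, a beta subunit, ranged from 22.6 to 53.99 CPM (median 36.6) with ethanol and from 25.2 to 45.7 CPM (median 32.1) with water. The ranges overlapped, with the 2 highest values in ethanol mice 13 and 1 and the highest water value in mouse 15, the 3 mice whose file index numbers stand apart. Gabrb1 had the largest estimated difference of the 7, a log2 fold change of 0.28 (SE 0.14, 95% interval -0.01 to 0.58), with an unadjusted p of 0.0586 and an adjusted p of 0.331 by edgeR. Gabrb2, the beta subunit of most cortical receptors, ranged from 185.6 to 365 CPM (median 310.4) with ethanol and from 240.9 to 423 CPM (median 326.4) with water. The 3 highest values were those of water mice 19, 18 and 16, and the lowest was that of ethanol mouse 3. The log2 fold change of Gabrb2 was -0.15 (SE 0.14, 95% interval -0.43 to 0.14). All 7 intervals include 0, and they reach as far as 0.58 upward (Gabrb1) and -0.43 downward (Gabrb2), so differences up to these sizes could not be told from 0.

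**Figure D1:**
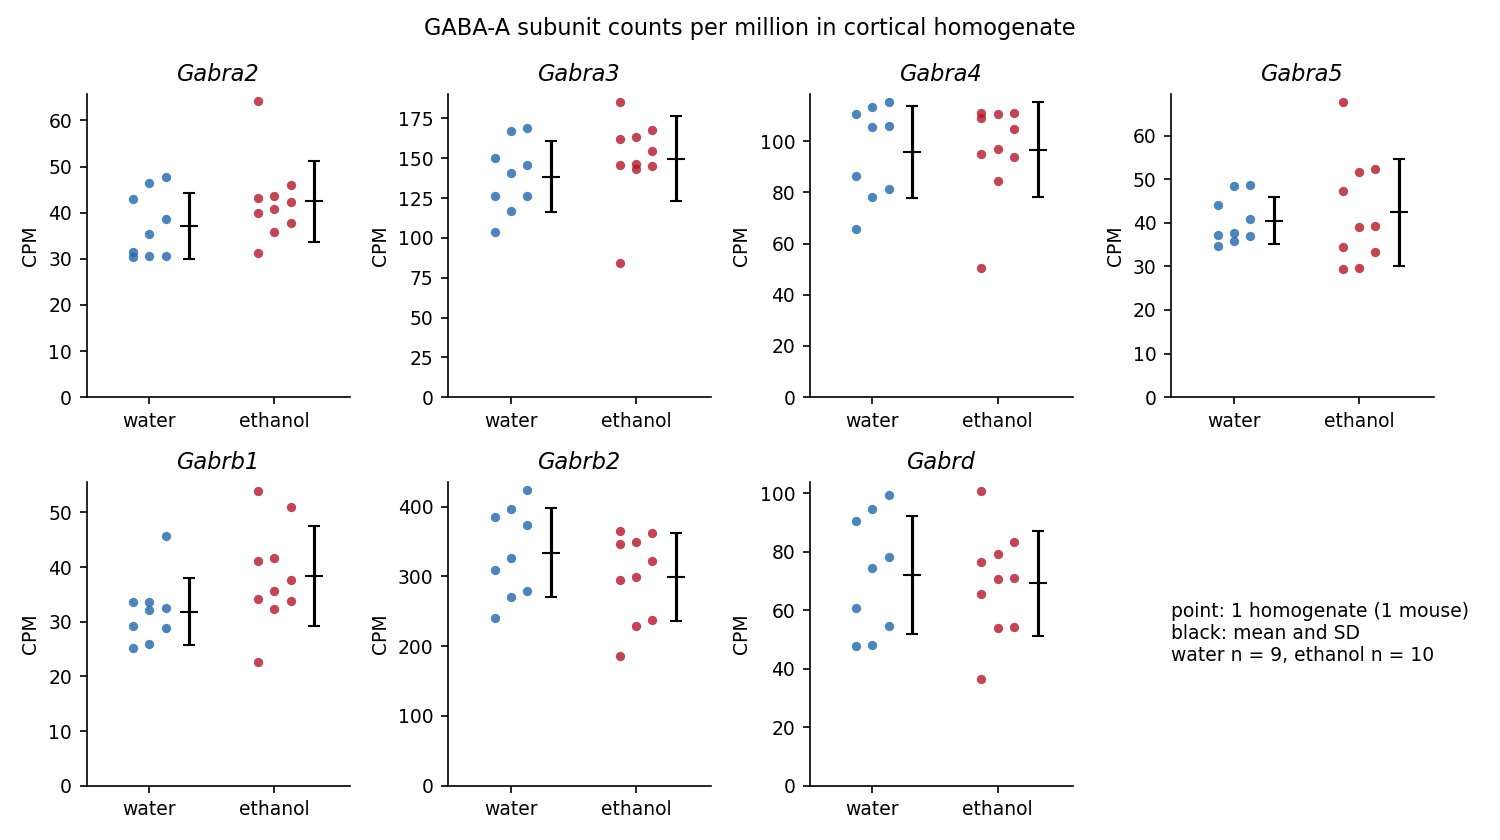
CPM of the 7 subunits in each cortical homogenate, with water mice in blue (n = 9) and ethanol mice in red (n = 10), and the mean and SD in black. The ranges of the groups overlap for every subunit, and the lowest Gabra3, Gabra4, Gabrb2 and Gabrd values and the highest Gabra2 and Gabra5 values belong to ethanol mouse 3.

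Index numbers in the file names and the mouse numbers divide the homogenates of the drinking cohort into sets, which the labels do not describe. The ethanol difference was estimated again within set 1 (mice 2, 3, 5, 7, 16, 17, 18 and 19) and set 2 (mice 9, 10, 11, 14, 21, 24, 25 and 26); set 3, with ethanol mice 1 and 13 and water mouse 15, was too small. For Gabrd the log2 fold change was -0.47 (SE 0.29) within set 1 and 0.30 (SE 0.20) within set 2. Gabrb2 showed -0.44 (SE 0.22) and 0.08 (SE 0.14), and Gabra5 0.33 (SE 0.22) and -0.22 (SE 0.15). Gabrb1 had 0.11 (SE 0.18) and 0.33 (SE 0.09), with an unadjusted p of 0.00562 and an adjusted p of 0.55 within set 2, and 0.22 (SE 0.09) with set as a covariate (unadjusted p = 0.0309, adjusted p = 0.246). Over 31 alternative edgeR, DESeq2 and limma fits its unadjusted p was under 0.05 in 8, that of Gabra2 in 4 and that of Gabra3 in 1. Over all tested genes the edgeR unadjusted p was under 0.05 for 1314 of 15255 within set 2. With set as a covariate it was so for 2538 of 15215. Gabra2 and Gabra3 also had positive estimates in both sets, and Gabra4 had -0.11 in set 1 and 0.15 in set 2. No subunit passed the edgeR test in either set, where the lowest adjusted p of the 7 was 0.514. The difference between the sets was not tested. The share of uniquely aligned reads that fell outside genes was higher in the ethanol group, with a mean of 27.1% (SD 4.20, n = 10) against 22.5% (SD 1.91, n = 9) in the water group. With that share as a covariate the estimates moved to 0.41 for Gabrb1, 0.29 for Gabra3, 0.10 for Gabrd and -0.01 for Gabrb2, and edgeR called 0 of 7 subunits and 0 of 15215 genes (1197 at an unadjusted p under 0.05).

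**Figure D2:**
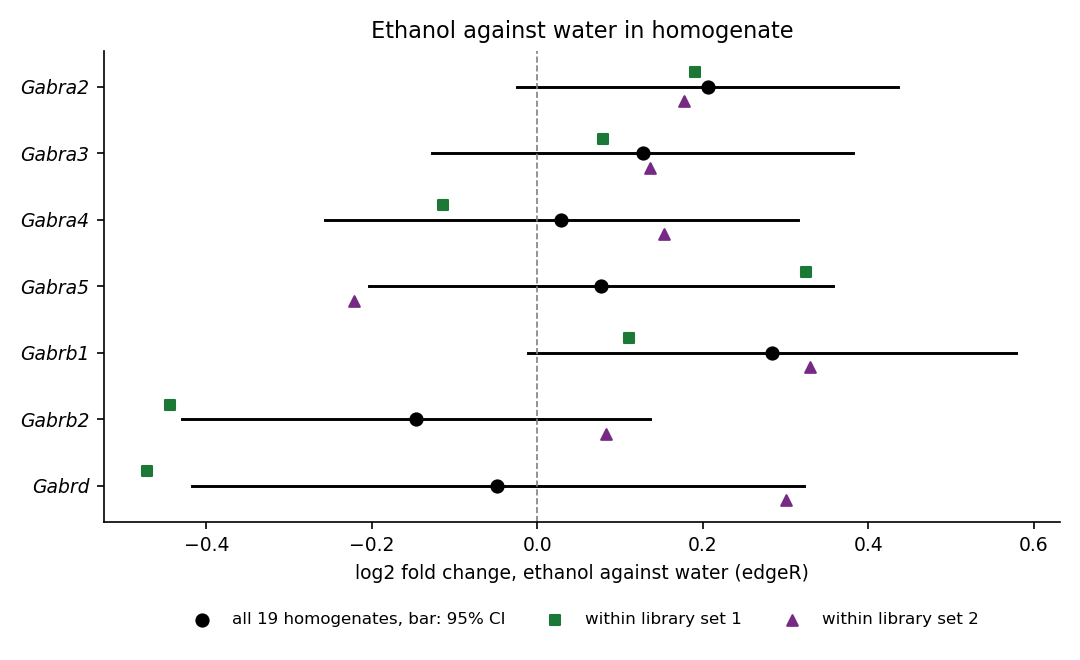
Log2 fold change of each subunit between ethanol and water homogenates by edgeR (black, with the 95% interval over 19 homogenates) and the estimate within library set 1 (green squares) and set 2 (purple triangles). Every interval crosses 0, and Gabra4, Gabra5, Gabrb2 and Gabrd lie on opposite sides of 0 in the sets.

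Of the other 12 GABA-A subunit genes 7 were expressed highly enough to be tested in homogenate, and 0 of 7 were called by edgeR. At an unadjusted p under 0.05 the count was 0 of 7 as well, beside 2456 of 15215 tested genes. Their median log2 fold change was 0.08, that of the 7 subunits described above was also 0.08, and that of all tested genes was -0.01. Gabrp was the lowest of the 12 in level per kilobase, with 0 counts in all 19 homogenates. Of 30 other genes of GABA transmission (synthesis, transport, receptor anchoring and trafficking) 1 rose and 0 fell. That gene was Hap1, whose protein takes part in moving GABA-A receptors along microtubules. Hap1 ranged from 100.1 to 181.5 CPM (median 128.6) with ethanol and from 71.6 to 135 CPM (median 90.2) with water, so that the groups overlapped between 100.1 and 135 CPM. Its log2 fold change was 0.55 (SE 0.13) with an adjusted p of 0.0421 by edgeR, and the call held in 11 of 31 alternative fits, whose adjusted p ranged from 0.00293 to 1.

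Levels of several subunits varied together from mouse to mouse. Correlations were taken over the 19 homogenates on log2 CPM (with 0.5 CPM added) after the group means were taken off, with p-values from 100000 permutations within groups adjusted over 119 relations. These relations share libraries, depth and the amount of each cell type in the tissue piece, and in bulk tissue fewer cells of a type and less RNA per cell cannot be told apart. Of 21 relations among the 7 subunits 11 had an adjusted permutation p under 0.05 by Pearson's r and 6 by Spearman's rho. The share of other gene pairs that would pass is not given here. These counts therefore do not show a tie that is particular to the subunits.

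The tightest relation was that of Gabrb2 with Gabrd (Pearson r = 0.95, Spearman rho = 0.91, adjusted permutation p = 0.00034 and 0.000595). Without the 2 homogenates farthest from the median it was 0.91, and within sets 1 and 2 it was 0.97 and 0.96. Gabra4 followed both, with r = 0.89 to Gabrd (rho = 0.85, adjusted permutation p = 0.00034 and 0.00238) and r = 0.85 to Gabrb2 (rho = 0.74, adjusted permutation p = 0.00034 and 0.00678). Without the 2 farthest homogenates these were 0.84 and 0.77, and within the sets they lay between 0.77 and 0.93. Homogenates high in the extrasynaptic subunits alpha 4 and delta were thus also high in beta 2.

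Gabra3 varied with Gabra4 (r = 0.87, rho = 0.63, adjusted permutation p = 0.00275 and 0.0407) and with Gabrb1 (r = 0.81, rho = 0.72, adjusted permutation p = 0.00119 and 0.00853). Without the 2 farthest homogenates these values were 0.57 and 0.66. The neighbours Gabra4 and Gabrb1 had r = 0.74 (rho = 0.67, adjusted permutation p = 0.00331 and 0.0191) and 0.53 without the 2 farthest. Gabra2 went the other way from Gabra3 (r = -0.70, adjusted permutation p = 0.0237), but rho was -0.47 (adjusted permutation p = 0.161) and r was -0.31 without ethanol mouse 3 and water mouse 17, so that this relation rested on those homogenates. Gabra5 had r between -0.53 and 0.35 with the other subunits, and none of its 6 relations with them passed.

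The subunits also moved with marker sums of cortical cell types. Gabrd and Gabra4 were high where the 5 upper-layer markers (Cux2, Rasgrf2, Calb1, Lamp5 and Mdga1) were high, with r = 0.84 (rho = 0.81, adjusted permutation p = 0.00034 and 0.00238) and r = 0.80 (rho = 0.75, adjusted permutation p = 0.000446 and 0.00635). Within sets 1 and 2 these values were 0.95 and 0.84 for Gabrd and 0.91 and 0.91 for Gabra4, and without the 2 farthest homogenates 0.75 and 0.67. Gabrb2 had r = 0.72 with the same markers (rho = 0.62, adjusted permutation p = 0.00562 and 0.0415), 0.61 without the 2 farthest and 0.91 and 0.78 within the sets. With the 5 excitatory markers Gabra4 reached r = 0.93 (rho = 0.81, adjusted permutation p = 0.00034 and 0.00238), with 0.81 left without the 2 farthest homogenates and 0.98 and 0.80 within the sets. Gabra3 (r = 0.86), Gabrd (0.80), Gabrb2 (0.74) and Gabrb1 (0.69) were positively related to them too, with adjusted permutation p from 0.00162 to 0.00883, though the rho of Gabrb2 did not pass (0.57, adjusted permutation p = 0.0541).

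Markers of other cells moved with the same subunits in the opposite direction. Marker sums of oligodendrocyte precursors, the dividing cells that give rise to oligodendrocytes, were negatively related to Gabra4 (r = -0.845, rho = -0.853, adjusted permutation p = 0.00034 and 0.000793) and to Gabrd (r = -0.833, rho = -0.858, adjusted permutation p = 0.00034 and 0.000595). Gabrb2 had r = -0.742 with them (rho = -0.758, adjusted permutation p = 0.00119 and 0.00238). Without the 2 farthest homogenates these were -0.850, -0.913 and -0.863. Oligodendrocyte markers were negatively related to Gabra4 (r = -0.740), Gabra3 (r = -0.632) and Gabrd (r = -0.595) with adjusted permutation p of 0.0107, 0.0289 and 0.0337, but none of these passed by rho. Inhibitory neuron markers were negatively related to Gabrb1 (r = -0.688, rho = -0.716, adjusted permutation p = 0.00528 and 0.00853) and Gabra3 (r = -0.637, rho = -0.661, adjusted permutation p = 0.0276 and 0.0223), and to Gabra4 by r alone (r = -0.571, rho = -0.532, adjusted permutation p = 0.0417 and 0.104). Within ethanol and water mice r was -0.891 and -0.568 for Gabrb1, -0.850 and -0.494 for Gabra3 and -0.855 and -0.359 for Gabra4. Without the 2 farthest homogenates that of Gabra4 was -0.203. The difference between the groups was not tested. In all, 27 of 98 relations with marker sums or read shares passed by r and 18 by rho. The part of any 1 cell type in these relations was not tested.

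Gabra5 was the only subunit of the 7 with a positive relation to the 7 deep-layer markers that passed (r = 0.64, rho = 0.59, adjusted permutation p = 0.0182 and 0.0458), and it had 0.66 without the 2 farthest homogenates and 0.62 and 0.60 within the sets. Gabra5 was also related to astrocyte markers (r = -0.625, rho = -0.612, adjusted permutation p = 0.0332 and 0.0541), with -0.071 within set 2. It had r = -0.606 with the upper-layer markers and r = 0.513 with oligodendrocyte markers (adjusted permutation p = 0.0289 and 0.0337), neither of which passed by rho, and the latter was 0.185 without the 2 farthest homogenates. Within ethanol and water mice the r of Gabra5 was -0.839 and -0.167 with upper-layer and 0.817 and 0.219 with oligodendrocyte markers. With deep-layer markers it was 0.766 and 0.455, and with astrocyte markers -0.641 and -0.642. Gabrd and Gabrb2 were negatively related to the deep-layer markers (r = -0.73 and r = -0.67, rho = -0.76 and -0.65, adjusted permutation p of r = 0.00562 and 0.0164). Whether these relations differ between subunits was not tested. Gabra2 had no relation to any marker list with an adjusted permutation p under 0.05.

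Ethanol mouse 3 and water mice 17 and 26 were at the low end of the upper-layer range and the high end of the oligodendrocyte range. Their upper-layer marker sums were 342, 328 and 430 CPM, against 448 to 1136 CPM in the other 16 homogenates. Their oligodendrocyte marker sums were 7567, 8941 and 12260 CPM, against 1433 to 4167 CPM. Gabrd stood at 36.4, 48.2 and 60.8 CPM in them, Gabra4 at 50.5, 65.7 and 78.1 CPM and Gabra2 at 64.1, 47.7 and 30.5 CPM. Gabra2 was thus the highest and Gabra4 the lowest of its group in ethanol mouse 3 and water mouse 17, whereas in water mouse 26 Gabra2 was at the low end of its group. At the other end ethanol mouse 10 had the highest upper-layer marker sum (1136 CPM) and the highest Gabrd of all homogenates (100.6 CPM). The part of tissue composition in any ethanol difference was not tested beyond leaving libraries out: without the 3 homogenates richest in oligodendrocyte markers the edgeR estimates were 0.29 for Gabrb1, 0.15 for Gabra2 and -0.07 for Gabrd, and 0 of 7 were called.

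**Figure D3:**
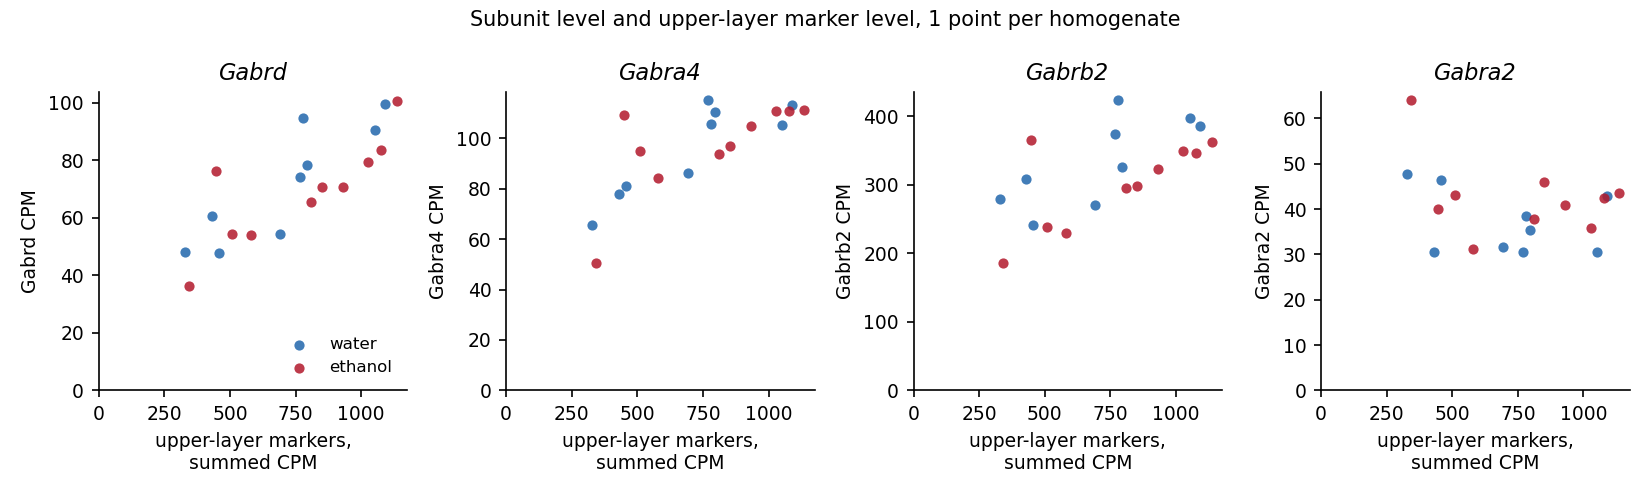
CPM of Gabrd, Gabra4, Gabrb2 and Gabra2 (vertical axes) against the summed CPM of 5 upper-layer marker genes (horizontal axes), with 1 point per homogenate, water in blue and ethanol in red. Gabrd, Gabra4 and Gabrb2 climb with the markers (r = 0.84, 0.80 and 0.72 on the log2 scale with group means off), and Gabra2 does not (r = -0.39).

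The genes most like each subunit over the 19 homogenates were ranked by the same Pearson r among 14247 genes, as a description without a test. Gabrd was closest to Slc12a5 (r = 0.949), the neuronal potassium-chloride cotransporter that keeps chloride low in neurons, and to Gabrb2 (0.948). Gabrb2 was closest to Ngef (0.959), and Gabra4 to Prrg3 (0.961). Next to Gabra4 came Arpp19 (0.958) and Wnt10a (0.958), which are not GABA-A subunits either. Gabra3 was closest to Pcsk2 (0.938), a prohormone-cleaving enzyme, and Neurod6, a transcription factor of excitatory neurons, was also near it (0.905). Gabra2 was closest to Fam19a1 (0.897) and Gabra5 to Rasa3 (0.806), and the gene closest to Gabrb1 was Gabra3 (0.815).

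In the CD11b isolates the subunits were nearly gone. All 7 were lower in isolates than in homogenates of water mice, where 49.1% of 15057 tested genes were lower, and of ethanol mice, where 45.6% of 14637 were lower (edgeR). Gabra2, Gabra4 and Gabra5 had too few counts to be tested among isolates alone. They entered these tests through their homogenate counts, so their direction was largely given by the filter. The log2 fold changes in water mice ranged from -7.91 (Gabrb2, SE 0.65) to -5.56 (Gabrb1, SE 0.47), with adjusted p from 1.74e-11 to 3.29e-09, and the median was -7.34 against -0.37 for all genes. In ethanol mice they ranged from -7.76 (Gabra4, SE 0.51) to -6.00 (Gabrd, SE 0.56), with adjusted p from 3.86e-12 to 1.72e-09, and the median was -7.42 against -0.21 for all genes. Another scaling (RLE) moved that last median to -0.43. Every subunit stayed called, and lower, in all alternative fits (24 in water and 26 in ethanol mice), that with the mouse as a block among them.

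Expressed as a share of the homogenate CPM of the same mice, the level left in isolates of water mice was 0.355% for Gabra2, 0.395% for Gabrb2, 0.538% for Gabra5, 0.567% for Gabra4, 0.570% for Gabra3, 1.87% for Gabrd and 1.96% for Gabrb1. In ethanol mice it was 0.367% for Gabra4, 0.383% for Gabra2, 0.422% for Gabrb2, 0.483% for Gabra5, 0.782% for Gabra3, 1.02% for Gabrb1 and 1.38% for Gabrd. Gabrb1 and Gabrd had the largest shares in both groups, but in ethanol mice the place of Gabrb1 rested on mouse 1, without which its share was 0.601% and that of Gabra3 0.807%. These shares lay in the range of the 10 general neuronal markers (0.370% to 0.957% in water and 0.514% to 1.90% in ethanol mice), except that Gabra2 in water mice and Gabra2, Gabra4, Gabrb2 and Gabra5 in ethanol mice lay below it and Gabrd and Gabrb1 in water mice above it. The median share was 2.84% for astrocyte markers and 13.5% for oligodendrocyte markers in water mice. The source of the subunit counts in the isolates was not tested. Several of these shares rested on 1 library: without water mouse 15 that of Gabra3 fell to 0.297%, Gabra4 to 0.312%, Gabrb2 to 0.207% and Gabra2 to 0.210%. Without ethanol mouse 7 that of Gabrb2 fell to 0.267%, and without mouse 11 that of Gabra2 to 0.239%.

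**Figure D4:**
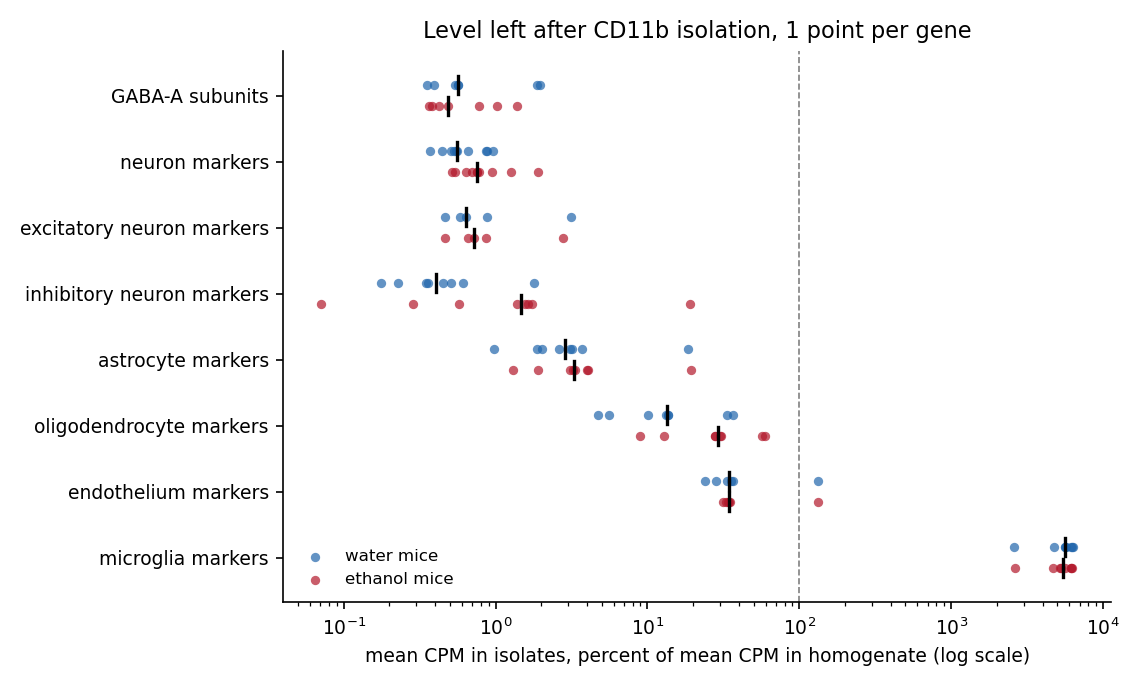
Mean CPM in CD11b isolates as a percent of the mean CPM in homogenate of the same mice (log axis), with 1 point per gene, water mice in blue and ethanol mice in red, and the median of each list as a black bar. The 7 subunits (0.355% to 1.96%) lie in or near the range of the neuronal markers and to the left of the oligodendrocyte and endothelial markers, with Gabrd and Gabrb1 reaching into the low end of the astrocyte markers, and the microglial markers lie far to the right of 100%.

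Other genes of GABA transmission were less uniform. Of 30, 24 fell and 5 rose in isolates of water mice, and 24 fell and 6 rose in ethanol mice (edgeR), beside 35.3% and 38.8% of all tested genes that were higher in isolates. The risers in both were Gabarap (log2 fold change 0.99 in water and 1.09 in ethanol mice), a receptor-associated protein also used in autophagy, Slc12a2 (1.43 and 2.05), a chloride-importing cotransporter, Plcl1 (0.59 and 0.90), Plcl2 (1.85 and 2.11) and Mkln1 (0.46 and 0.63). Clptm1, which limits receptor assembly, also rose in ethanol mice (0.29), but with RLE scaling its log2 fold change was 0.06 (edgeR adjusted p = 0.329) and with DESeq2 it was not called either (adjusted p = 0.343). Among the other 12 subunit genes 6 of 7 tested fell in water mice and 6 of 6 in ethanol mice.

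Counts of the subunits in isolates were sparse and uneven. Of 196 values (7 genes in 28 isolates) 62 were 0. The summed level of the 7 subunits ranged from 0.356 to 10.7 CPM (median 4.34) in ethanol isolates and from 1.47 to 14.03 CPM (median 4.12) in water isolates. It ranged from 0.666 to 3.48 CPM (median 1.28) after LPS and from 1.17 to 5.48 CPM (median 2.81) after saline. All groups overlapped, and the highest was the isolate of water mouse 15, which also had the highest excitatory marker sum of the isolates (163.8 CPM). In many isolates 1 subunit made up most of the sum. LPS mouse 51 had 74 counts of Gabra3 (3.48 CPM, 95% Poisson interval 2.74 to 4.37) and 0 counts of the other 6. Saline mouse 48 had 28 counts of Gabra4 (1.17 CPM, 95% interval 0.780 to 1.70) and 0 of the other 6, and in LPS mouse 50 Gabrb1 supplied 91.1% of the summed counts. Among genes with at least 1 count, 53.1% to 75.2% had an even count in the isolates and 49.7% to 53.4% in the homogenates. Of the subunits' own counts above 0, 51.5% were even in the isolates (69 of 134) and 45.9% in the homogenates (61 of 133). No molecular identifiers are stated, so the Poisson intervals cover counting error only.

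Between ethanol and water isolates 4 of the 7 subunits passed the filter on low counts and 0 of 4 were called (edgeR), beside 0.00756% of 13223 tested genes. At an unadjusted p under 0.05 by edgeR the count was 0 of 4, beside 1011 of 13223 genes. Gabra3 ranged from 0.0397 to 2.56 CPM (median 1.21) in ethanol isolates and from 0 to 3.56 CPM (median 0.288) in water isolates, and its log2 fold change was 0.55 (SE 0.89, 95% interval -1.29 to 2.38). Gabrb2 ranged from 0.0791 to 5.28 CPM (median 0.552) and from 0.0939 to 5.84 CPM (median 0.469), with a log2 fold change of -0.07 (SE 0.86, 95% interval -1.86 to 1.72). Gabrb1 ranged from 0 to 1.90 CPM (median 0.143) and from 0 to 1.62 CPM (median 0.495), with -0.69 (SE 1.00, 95% interval -2.76 to 1.38). Gabrd ranged from 0 to 2.43 CPM (median 0.732) and from 0.309 to 2.41 CPM (median 1.22), with -0.58 (SE 0.82, 95% interval -2.27 to 1.12). The groups overlapped for each, and the intervals leave room for changes of several fold in either direction. Gabra2, Gabra4 and Gabra5 did not pass the filter: they had 0 counts in 4 of 10, 4 of 10 and 4 of 10 ethanol isolates and in 4 of 8, 2 of 8 and 3 of 8 water isolates.

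Between LPS and saline isolates only Gabra3 passed the filter, and it was not called, beside 0.0160% of 12469 tested genes. Its CPM in the LPS mice 33, 40, 44, 50 and 51 was 0.393, 0.0333, 0.374, 0 and 3.48, and in the saline mice 38, 45, 46, 48 and 49 it was 0.2402, 0.407, 1.82, 0 and 0.552. LPS mouse 51 was far above the rest, and the other values of the groups intermingled. The log2 fold change was 0.51 (SE 1.74, 95% interval -3.14 to 4.16) with an adjusted p of 0.999 by edgeR, and without LPS mouse 51 it was -1.58. Gabrb2 was at 0 in LPS mice 33, 50 and 51 and at most 0.433 CPM in LPS mouse 40, and at 0 in saline mice 46 and 48 with 4.66 CPM in saline mouse 38 and 0.949 CPM in saline mouse 45. Gabrd was at 0 in 3 of 5 LPS and 2 of 5 saline isolates, and reached at most 0.312 and 1.00 CPM. Gabra2 was seen in LPS mouse 44 alone (16 counts, 0.499 CPM) and had 0 counts in the 5 saline isolates. If its counts were spread evenly over mice, this would allow a level of up to 0.0221 CPM (3 counts over the group). Counts in isolates were uneven between mice, so that limit may be too low. Gabra4, Gabra5 and Gabrb1 were at 0 in 3, 3 and 2 of 5 LPS isolates and in 2, 3 and 2 of 5 saline isolates. None of these allowed a comparison at this depth in the main fit. The edgeR fit of all 47 libraries gave 4.97 for Gabra2 (unadjusted p = 0.0187, adjusted p = 0.159). It gave -3.61 for Gabra5 (0.0163 and 0.147) and -3.33 for Gabrb2 (0.012 and 0.128). In that fit 3137 of 16285 tested genes had an unadjusted p under 0.05. Without the filter Gabra2 had 4.54 (unadjusted p = 0.046, adjusted p = 0.505). These estimates rest on counts in few libraries, and no other subunit had an unadjusted p under 0.05 in any alternative fit.

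**Figure D5:**
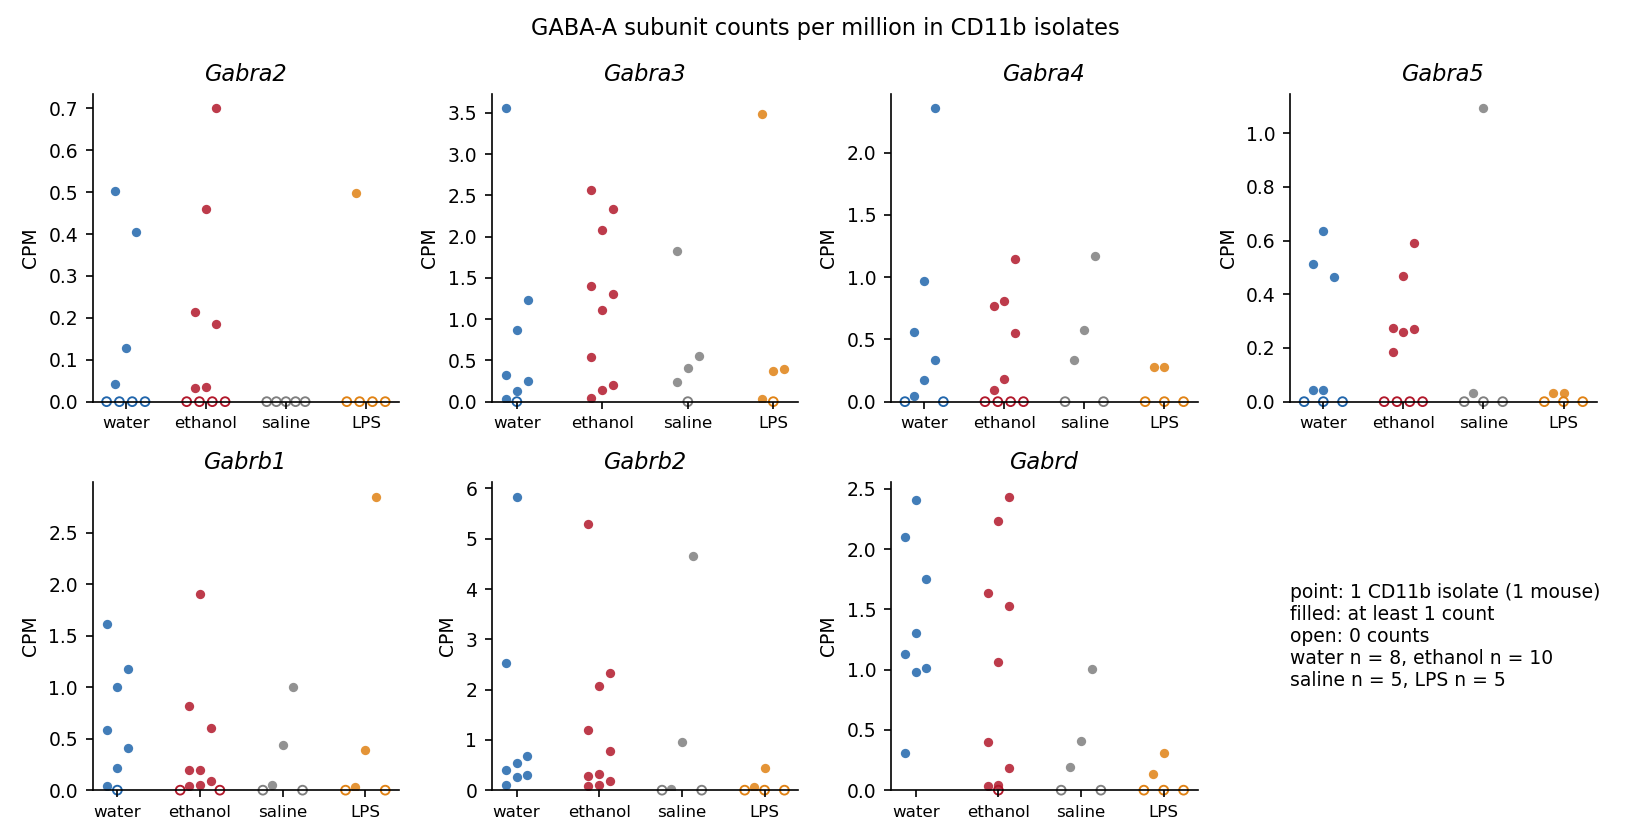
CPM of the 7 subunits in each CD11b isolate of water (n = 8), ethanol (n = 10), saline (n = 5) and LPS (n = 5) mice, where open circles are libraries with 0 counts. Levels are at most 5.84 CPM, the groups overlap for each subunit, and single libraries stand out, such as LPS mouse 51 for Gabra3 and saline mouse 38 for Gabrb2.

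The ethanol response of the isolates was also set against that of the homogenates in 1 model. The test called 0 of 7 subunits (edgeR), beside 0.342% of 15797 tested genes. At an unadjusted p under 0.05 by edgeR the count was 0 of 7, beside 1956 of 15797 genes. Gabra2, Gabra4 and Gabra5 were included only through their homogenate counts, as they did not pass the filter among isolates alone. For them the result says little about a response in isolates. The estimated differences of response ranged from -0.96 (Gabrb1, SE 0.69) to 0.44 (Gabra3, SE 0.63) on the log2 scale, with 95% intervals of -2.37 to 0.44 and -0.85 to 1.72. With the mouse as a block 0 of 7 were called as well. Without the isolate of ethanol mouse 1 the Gabrb1 difference was -1.80 (SE 0.63, unadjusted p = 0.00728, adjusted p = 0.191 by edgeR), and without that of water mouse 15 the Gabra3 difference was 1.36 (SE 0.60, adjusted p = 0.312).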

How the data were processed

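Poly(A) RNA was sequenced as paired reads of 75 bases from 19 cortical homogenates and 28 CD11b isolates. Each deposited table holds raw counts (whole reads) of 1 library by gene symbol, with 24062 genes and 5 tally rows that were kept out of library sizes and tests. The tools named, per the submitters' processing notes, are STAR, HTSeq, FastQC, DESeq2 and bcl2fastq (2.15.0.4), and the build is mm10. For the counting, strand setting and annotation were not given in the sources used here. Of 48 samples listed, 47 had counts, and the isolate of water mouse 26 was not analysed here. Groups follow the labelled treatment and preparation.

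CPM was computed from the deposited counts. Each comparison was fitted over all genes with its own groups by edgeR 4.0.16 (R 4.3.3): TMM scaling of genes kept by filterByExpr, quasi-likelihood F-test, Benjamini-Hochberg adjustment, calls at 0.05. Subunits and lists were given by a rule that names all 7 subunits, the other subunits with values for the highest (not reported here), the lowest and those called, the called genes of GABA transmission (only those that rose, where most fell), and the genes most like each subunit. The members, lists and tests were chosen with earlier results of these data known. Correlations were planned as a description, and permutation p-values were added. Alternatives were RLE scaling, filters on low counts, DESeq2 1.42.0 (adjusted p left as NA where it gave none, as for some subunits in isolates), voom in limma 3.58.1, library sets, a covariate, blocks and libraries left out. SE was taken as the log2 estimate over the root of its F statistic, a rough guide where counts are near 0. On simulated counts the homogenate fit called 98% of genes changed 2-fold and 90% of genes changed 1.5-fold, and the microglial fit 94% and 75%. The changed genes were drawn only from genes with a mean CPM above the level of any subunit in isolates. The microglial shares therefore do not apply to the subunits there. Counts were drawn independently for each gene, without the differences in tissue composition or library set that genes share. The homogenate shares are averages over the genes drawn and not the share for any 1 subunit.

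By the protocol, equal mouse numbers mark the homogenate and the isolate of 1 animal. The deviations of the 18 pairs from their group means correlated over 12087 genes with a median of 0.0466 (range -0.0359 to 0.148). Promoters are from RefSeq (GRCm38.p6) and gene positions from GENCODE M21; all 7 symbols matched in the annotation.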

Additional observations from a re-analysis of the deposited data

Results flagged for a closer look

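Of 41 sets of CPM values (a subunit in a group of 5 to 10 libraries) 15 held a library farther from its neighbours than Dixon's 95% limit allows. Chance passes that limit in about 1 of 20 independent, normally distributed sets. These sets share libraries and related subunits, so their number cannot be set against that rate. In homogenate ethanol mouse 3 stood above the rest for Gabra2 (64.14 CPM, next 45.98) and below the rest for Gabra3 (84.28 CPM, next 143.3) and Gabra4 (50.53 CPM, next 84.32). Water mouse 15 was high for Gabrb1 (45.66 CPM, next 33.65).

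In the isolates every such library was high. Water mouse 15 stood out for Gabra3 (3.556 CPM), Gabra4 (2.358 CPM) and Gabrb2 (5.837 CPM). Among ethanol isolates mouse 1 stood out for Gabrb1 (1.901 CPM) and mouse 7 for Gabrb2 (5.284 CPM). After LPS these were mouse 44 for Gabra2 (0.4987 CPM), mouse 51 for Gabra3 (3.484 CPM), mouse 50 for Gabrb1 (2.85 CPM) and mouse 40 for Gabrb2 (0.4328 CPM). After saline they were mouse 46 for Gabra5 (1.093 CPM) and mouse 38 for Gabrb2 (4.659 CPM). The groups of isolates hold many values at or near 0, where this limit is easily passed.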

How the results depend on the processing

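The count of called subunits did not change under any alternative that was run: 0 in the ethanol comparisons of homogenate and microglia, in LPS against saline and in the difference of ethanol responses, and 7 in both comparisons of microglia with homogenate. In the main fits only 4 of 7 subunits were tested between ethanol and water microglia, and only Gabra3 between LPS and saline. With the mouse as a replicate block 7 of 7 subunits stayed lower in microglia and 0 of 7 differed in ethanol response, while the block moved the genes called for that difference from 54 to 0 (1132 at an unadjusted p under 0.05).

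Signs of uncalled estimates were less stable. In homogenate these turned within set 1 for Gabra4 (-0.11), within set 2 for Gabra5 (-0.22), Gabrb2 (0.083) and Gabrd (0.30), and for Gabrd with the share of reads outside genes as a covariate (0.10). Between ethanol and water microglia Gabrb2 turned with voom (0.033), with set as a covariate (0.41) and within sets 1 and 2 (1.18 and 0.96). Gabra3 after LPS turned with voom (-0.59). For the difference of ethanol responses Gabra5 turned with RLE scaling (-0.011), with DESeq2 (-0.10) and without water mice 19 and 24 (-0.029), as did Gabrb2 without those mice (-0.16). Leaving out single libraries gave -0.029 to 0.11 for Gabra4, -0.01 to 0.13 for Gabra5 and -0.12 to 0.031 for Gabrd in homogenate, -0.71 to 0.85 for Gabrb2 in microglia and -1.58 to 1.51 for Gabra3 after LPS. For the difference of responses it gave -0.65 to 0.51 for Gabra2, -0.97 to 0.24 for Gabra4, -0.34 to 0.81 for Gabra5 and -0.50 to 1.10 for Gabrb2. The causes were not tested.

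Counts over all genes depended on the fit. In homogenate edgeR called 123, against 62 without the filter on low counts, 533 with DESeq2, 82 without water mice 19 and 24, 10 without the 3 homogenates richest in oligodendrocyte markers, 24 in a fit of all 47 libraries, 0 with the covariate and 0 within either set. Single libraries left out gave 39 (water mouse 18) to 275 (ethanol mouse 1). Ethanol against water microglia had 1, against 42 with DESeq2, 8 with voom, 181 in the joint fit and 0 and 4 within sets 1 and 2, and 0 to 7 with libraries left out. LPS against saline had 2, against 17 without the filter, 48 with DESeq2, 1 with voom and 536 in the joint fit, and 0 to 6 with libraries left out. The difference of responses had 54, against 35 with a stricter filter, 242 with DESeq2, 25 with voom and 17 without water mice 19 and 24, and 22 to 132 with libraries left out. In isolates most subunits lie near the level of a few counts, which limits any comparison there.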
